A study of Mus musculus with 25 samples.

Results

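Collagens and the enzymes that process them were examined in the mRNA bound to cholinergic neuron ribosomes of the mouse spinal cord. The members were the genes whose symbol names a collagen alpha chain, together with the chaperone gene *Serpinh1*, the prolyl 4-hydroxylase genes *P4ha1*, *P4ha2*, *P4ha3* and *P4hb*, the lysyl hydroxylase genes *Plod1*, *Plod2* and *Plod3*, and the lysyl oxidase genes *Lox*, *Loxl1*, *Loxl2*, *Loxl3* and *Loxl4*, each with at least 10 counts summed over the immunoprecipitates. These were 57 of the 50559 genes counted (44 collagen chains and 13 processing genes), and no listed gene fell below the count limit. All 57 were among the 21738 genes tested.

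Ribosomes carrying a hemagglutinin (HA) tag were immunoprecipitated (IP) from single spinal cords of 6-mo-old male mice, and the bound mRNA was sequenced. Controls were *ChAT-Cre;RiboTag* fx/+ mice, and *ChAT-BKO* mice carried *Bmal1* fx/fx in addition, so that all mice shared the Cre driver and the tag and the controls had no floxed *Bmal1* allele. *ChAT-Cre* acts in cells that express choline acetyltransferase, and *Bmal1* encodes a transcriptional activator of the circadian clock. Tissue was taken at Zeitgeber Time (ZT) 8, in the light period, and at ZT20, in the dark period, with 6 libraries for each genotype and time, and 1 further library came from pooled input of both genotypes, which is RNA of the whole cord.

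Collagens are proteins of 3 alpha chains wound into a triple helix, and they form the fibrils of connective tissue and the networks of basement membranes. In the endoplasmic reticulum, prolyl 4-hydroxylases and lysyl hydroxylases modify the chains and the chaperone HSP47, encoded by *Serpinh1*, binds the folded helix; outside the cell, lysyl oxidases crosslink the secreted collagen. In the spinal cord collagen is known mainly from the meninges and vessel walls, while basement membrane collagens and collagen-tailed acetylcholinesterase belong to the neuromuscular junction that motor neurons form with muscle.

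The IP libraries held 4.04 to 31.7 M counts and the input 7.40 M. Levels are given as CPM (counts scaled to a common library total) on TMM-scaled library sizes, and 0 counts in a library correspond to at most 0.743 CPM in the shallowest IP and 0.0947 CPM in the deepest (3 counts, covering counting error only). *Bmal1*, listed as *Arntl*, had a mean of 8.44 ± 1.43 CPM (SD, n = 6) in ZT8 controls against 2.64 ± 0.538 CPM after deletion, and the ZT20 means were 8.73 ± 1.18 and 1.92 ± 0.515 CPM, with no overlap between genotypes. All 7 markers of cholinergic neurons were higher in the IP than in the input, by a median log2 ratio of 2.37. Markers of 8 other cell types were lower in the IP, with medians from -2.13 for skeletal muscle to -4.33 for astrocytes, but they were not at 0 in most libraries. The summed level of 12 skeletal muscle markers was highest in 2 libraries, control ZT8 replicate 2 (203 CPM) and *ChAT-BKO* ZT8 replicate 4 (256 CPM). The others ran from 59.5 to 174 CPM. By group the median sum was 130 CPM in *ChAT-BKO* neurons at ZT20 and 73.6 CPM in controls at ZT20. At ZT8 it was 69.2 CPM in *ChAT-BKO* neurons and 75.2 CPM in controls. Fewer cells of a type and less RNA per cell cannot be told apart in these bulk libraries.

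Promoters are shown for *Col4a2*, *Loxl4* and *Serpinh1*, whose levels differed between genotypes, and for *P4ha1*, whose level differed between times of day. Each window of 300 bases spans the RefSeq start of the gene (GRCm38.p6), most of it upstream, and is written 5′ to 3′ on the strand of the gene. The windows are chr8:11312555-11312854 (plus strand), chr19:42612757-42613056 (minus), chr7:99353190-99353489 (minus) and chr10:59323046-59323345 (plus). Capitals mark, for *Col4a2*, the 78 bases that it shares with the window of *Col4a1* on the opposite strand, and for the others any match to ACGTG on either strand, of which the *Loxl4* window has none.
Col4a2: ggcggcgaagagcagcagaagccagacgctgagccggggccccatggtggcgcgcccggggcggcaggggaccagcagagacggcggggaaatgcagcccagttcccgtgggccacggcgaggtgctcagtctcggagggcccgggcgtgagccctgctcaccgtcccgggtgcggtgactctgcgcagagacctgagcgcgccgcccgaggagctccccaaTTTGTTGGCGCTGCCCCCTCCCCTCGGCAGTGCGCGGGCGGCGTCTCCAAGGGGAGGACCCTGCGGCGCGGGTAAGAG
Loxl4: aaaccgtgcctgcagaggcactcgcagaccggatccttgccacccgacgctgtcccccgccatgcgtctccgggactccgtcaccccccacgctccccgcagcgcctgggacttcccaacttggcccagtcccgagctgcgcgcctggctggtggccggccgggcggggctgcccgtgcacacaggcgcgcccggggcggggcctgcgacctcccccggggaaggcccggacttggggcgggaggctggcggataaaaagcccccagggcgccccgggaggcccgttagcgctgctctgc
Serpinh1: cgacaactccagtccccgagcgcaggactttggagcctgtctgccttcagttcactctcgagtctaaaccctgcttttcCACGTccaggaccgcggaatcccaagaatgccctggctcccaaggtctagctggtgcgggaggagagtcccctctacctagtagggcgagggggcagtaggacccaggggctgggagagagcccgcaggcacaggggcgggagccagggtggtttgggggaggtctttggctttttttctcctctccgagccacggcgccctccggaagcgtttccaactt
P4ha1: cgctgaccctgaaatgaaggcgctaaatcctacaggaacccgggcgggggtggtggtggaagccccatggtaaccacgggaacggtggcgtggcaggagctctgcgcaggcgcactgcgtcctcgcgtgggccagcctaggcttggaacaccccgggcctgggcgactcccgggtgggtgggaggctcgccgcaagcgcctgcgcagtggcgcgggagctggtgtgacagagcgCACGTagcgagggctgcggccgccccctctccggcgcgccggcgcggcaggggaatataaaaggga

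*Col4a1* and *Col4a2* lie head to head on chromosome 8, on the minus strand from 11198423 to 11312826 and on the plus strand from 11312805 to 11449287, so that the annotated genes share 22 bases at their starts. *Loxl4* lies on chromosome 19 from 42593982 to 42612813, *Serpinh1* on chromosome 7 from 99345376 to 99353239, and *P4ha1* on chromosome 10 from 59323296 to 59373304. A promoter was found for 43 of the 57 members. The E-box CACGTG, the sequence that CLOCK and BMAL1 bind, was in 0 of these 43 windows and in 7.15% of all 32851 windows. The core letters ACGTG are found in hypoxia response elements and also lie inside CACGTG. They were in 10 member windows (23.3%, against 19.6% of all). These were the windows of *Col1a2*, *Col4a4*, *Col5a1*, *Col6a6*, *Col11a2*, *P4ha1*, *P4ha2*, *P4hb*, *Plod3* and *Serpinh1*. GAANNTTC, part of the heat shock element, was in the windows of *Col4a5* and *Plod1* (4.65%, against 7.86% of all). Both strands were searched, and a match is a run of letters and not a bound site.

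Most of the 57 members were lower in the IP than in the input. The log2 ratio of mean IP CPM to input CPM, without TMM, was above 0 for 6 members and had a median of -2.01, with a range from -4.10 (*Lox*) to 2.00 (*Loxl4*). Among members with at least 1 CPM in the input, 10.4% of 48 were above it, against 32.5% of the 15409 genes at that level. The input is a single library, and the mean IP level was below the 95% interval of the input level (exact Clopper-Pearson, counting error only) for 43 members, inside it for 11 and above it for 3, namely *Loxl4*, *P4ha2* and *P4hb*.

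**Figure D1:**
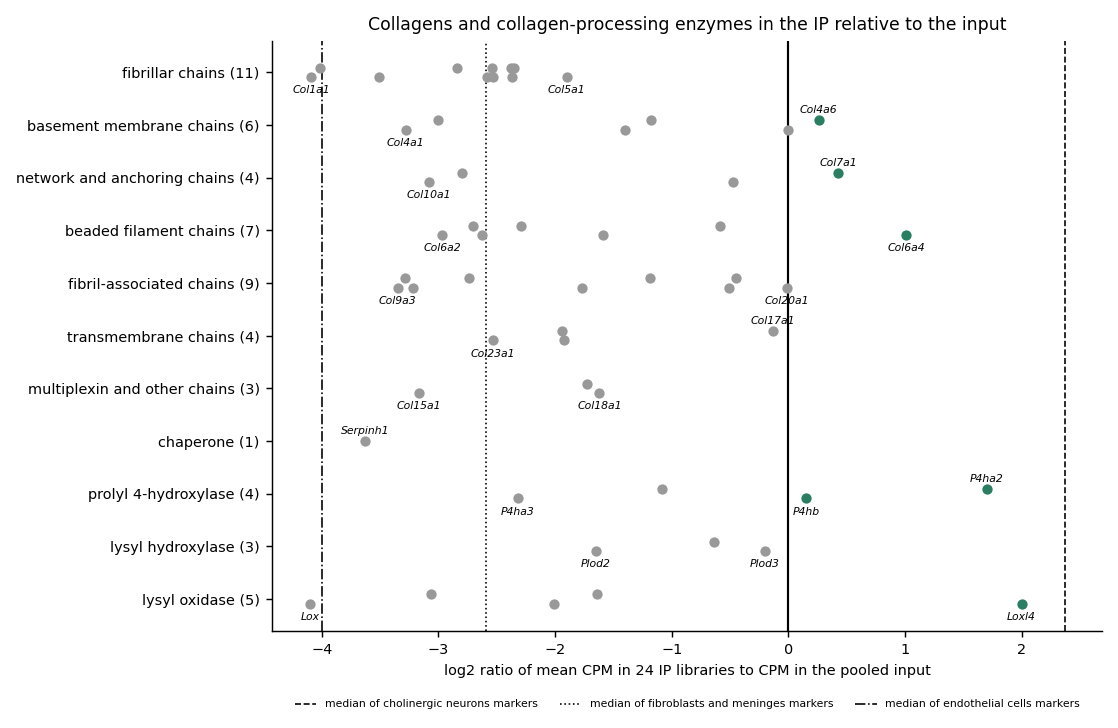
Log2 ratio of the mean CPM of 24 IP libraries to the CPM of the pooled input for each of the 57 members, 1 row per role with the number of members in brackets. Green points are the 6 members above 0, the solid line marks equal levels, and the other lines are the median ratios of markers of cholinergic neurons (2.37), of fibroblasts and meninges (-2.59) and of endothelial cells (-4.00).

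Of the 11 fibrillar chains, which build the fibrils of connective tissue, 0 were above the input and the median was -2.54. Marker medians were -2.59 for fibroblasts and meninges, -2.40 for Schwann cells, -2.13 for skeletal muscle and -4.00 for endothelial cells. *Col1a1* was at -4.09 and *Col1a2* at -4.02. Within the basement membrane chains *Col4a1* was at -3.28, *Col4a2* at -1.18 and *Col4a6* at 0.26. *Loxl4*, which encodes a secreted lysyl oxidase, was at 9.20 CPM in the IP and 2.30 CPM in the input (17 counts, interval 1.34 to 3.68 CPM) and was above the input in 24 of 24 IP libraries. *P4ha2*, a catalytic subunit of prolyl 4-hydroxylase, was at 33.9 CPM in the IP and 10.4 CPM in the input (interval 8.22 to 13.0 CPM), and was likewise above it in 24 of 24. *Col6a4* was above the input in 24 of 24 libraries as well, with a ratio of 1.01, but rested on 6 input counts (0.811 CPM, interval 0.298 to 1.77 CPM), and its mean IP level of 1.63 CPM lay inside that interval. *Serpinh1* was at 2.06 CPM in the IP and 25.6 CPM in the input, a ratio of -3.63. With TMM over all 25 libraries, 10 members were above the input and the median was -1.56; single IP libraries had 5 to 11 members above it.

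Per kilobase of exon, the highest levels in the IP belonged to the intracellular enzymes. *P4hb*, which encodes protein disulfide isomerase, the beta subunit of prolyl 4-hydroxylase, was at 60.9 CPM per kb, followed by *P4ha2* (14.5), *Plod3* (10.7), *Plod1* (8.40) and *P4ha1* (4.72 CPM per kb). The highest chains were *Col9a2* (2.53 CPM per kb), *Col4a2* (2.41) and *Col16a1* (2.38), with *Loxl4* at 2.45. *Col4a1*, the usual partner of *Col4a2* in type IV collagen, was at 0.535 CPM per kb. Of the 57 members, 40 had a mean of 1 CPM or more, and 12 had 0 counts in at least 1 IP library.

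Within the fibrillar chains, *Col11a2* ran from 4.95 to 11.5 CPM over the 24 IP libraries (median 6.86), *Col1a2* from 2.45 to 7.50 CPM (mean 4.62) and *Col3a1* from 0.814 to 6.23 CPM (median 2.74). The other fibrillar chains were *Col1a1*, *Col2a1*, *Col5a1*, *Col5a2*, *Col5a3*, *Col11a1*, *Col24a1* and *Col27a1*, with means from 0.296 to 2.60 CPM. The fibril-associated chains, which sit on the surface of fibrils, were led by *Col16a1* (9.10 to 18.7 CPM, median 12.1), *Col9a2* (4.90 to 11.2 CPM, median 7.22) and *Col20a1* (3.26 to 5.94 CPM, median 4.21). *Col9a1*, *Col9a3*, *Col12a1*, *Col14a1*, *Col19a1* and *Col22a1* had means from 0.141 to 2.18 CPM. *Col20a1* was near its input level, with a ratio of -0.01. The transmembrane chains were led by *Col25a1* (4.88 to 8.17 CPM, median 6.86) and *Col23a1* (3.95 to 7.17 CPM, median 5.23), whereas *Col13a1* (0 to 0.489 CPM, median 0.156) and *Col17a1* (mean 0.123 CPM) were near the limit of detection.

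Of the beaded filament chains of type VI and its relatives, *Col6a1* ran from 0.762 to 3.77 CPM (median 1.76), *Col6a4* from 1.04 to 2.34 CPM (median 1.57) and *Col6a3* from 0.792 to 2.85 CPM (median 1.47). *Col6a2* was at a mean of 1.38 CPM, and *Col6a5*, *Col6a6* and *Col28a1* were at 0.0895 to 0.392 CPM. *Col8a1* (0.979 to 4.10 CPM, mean 2.74), *Col7a1* (0.633 to 3.05 CPM, median 1.43) and *Col8a2* (0.291 to 1.99 CPM, median 0.957) formed the network and anchoring chains with *Col10a1*, which had 13 counts in all and 0 in 15 of 24 libraries. *Col18a1*, *Col15a1* and *Col26a1* were at medians of 4.25, 1.27 and 1.24 CPM. The other basement membrane chains were *Col4a6* (0.660 to 2.47 CPM, median 1.64), *Col4a3*, *Col4a4* and *Col4a5*, the last 3 with means from 0.205 to 0.505 CPM. Among the lysyl oxidases other than *Loxl4*, *Loxl2* ran from 0.792 to 2.41 CPM (median 1.71) and *Loxl3* from 0.245 to 1.74 CPM (median 1.02), with *Loxl1* and *Lox* at means of 0.698 and 0.212 CPM. *P4ha3* had a mean of 3.26 CPM and *Plod2* ran from 1.58 to 4.64 CPM (median 2.26).

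Between genotypes a small number of members passed the test, and each was higher in *ChAT-BKO* neurons. At ZT8, 1 of 57 members was called at an adjusted p under 0.05 (edgeR, adjusted over all genes tested), namely *Col4a2*, which encodes the alpha2 chain of type IV collagen in basement membranes; over all genes tested 0.129% were called higher and 0.0552% lower. At ZT20, 1 member was called, *Loxl4*, and 0.189% of all genes were called higher and 0.0414% lower. At either time the other 56 members did not pass. Of the 57 members, 30 had a log2 fold change above 0 at ZT8, with a median of 0.02, and 36 at ZT20, with a median of 0.08; over all genes the medians were 0 and -0.01. Members with an unadjusted p under 0.05 numbered 6 of 57 at ZT8, against 1051 of all 21738 genes (4.83%). At ZT20 they numbered 4 of 57, against 1366 of all genes (6.28%). The fitted fold changes that lay farthest from 0 at ZT8, those of *Col10a1* (1.27) and *Col6a6* (-1.25), belonged to genes with 13 and 21 counts over the 24 libraries.

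**Figure D2:**
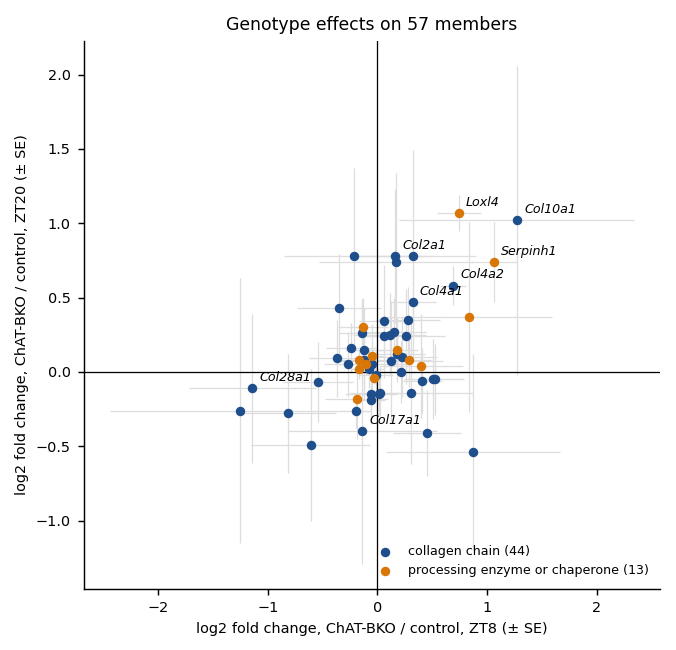
Log2 fold change of *ChAT-BKO* over control at ZT8 (x axis) and ZT20 (y axis) for the 57 members, with SE bars in grey, for collagen chains in blue and processing genes in orange. *Loxl4* (0.74 and 1.07), *Serpinh1* (1.06 and 0.74) and *Col4a2* (0.69 and 0.58) lie at the upper right. The bars of *Serpinh1* are longer than those of *Col4a2* at both times, and those of *Col10a1* span most of the plot.

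*Col4a2* at ZT8 ran from 10.7 to 15.5 CPM in controls (median 14.5) and from 18.5 to 27.4 CPM in *ChAT-BKO* neurons (median 21.8). No *ChAT-BKO* library overlapped the controls, which in this direction held for 0.396% of all genes. The log2 fold change was 0.69 (SE 0.12, edgeR adjusted p = 0.0178), and the exact permutation test (two-sided, unadjusted) gave p = 0.00216, the smallest it can give with 6 against 6 libraries. At ZT20 *Col4a2* ran from 8.49 to 13.7 CPM in controls (median 10.3) and from 12.0 to 18.4 CPM in *ChAT-BKO* neurons (median 15.6), so that 5 of 6 *ChAT-BKO* libraries lay above all controls. Here the log2 fold change was 0.58 (SE 0.13) and the edgeR adjusted p of 0.0747 did not pass. The ZT20 value passed in 5 of 11 alternatives. These were DESeq2 (adjusted p = 0.00837), no filter on low counts (0.0379), replicate number as a block (0.0245), a transcript length slope as a covariate (0.0244) and all 24 libraries in the fit (0.0465). With the skeletal muscle markers as a covariate the ZT20 fold change was 0.36 and did not pass. Without *ChAT-BKO* ZT8 replicate 3 the ZT8 value did not pass either (adjusted p = 0.0728), and without *ChAT-BKO* ZT20 replicate 4 or control ZT20 replicate 6 the ZT20 value did (lowest adjusted p = 0.0164). The summed level of 9 fibroblast and meninges markers at ZT8 ran from 53.6 to 80.2 CPM in controls and from 67.0 to 105 CPM after deletion, with 0 markers called; with the vascular and fibroblast markers as a covariate the fold change was 0.77 and the adjusted p was 0.135. Endothelial markers, at 8.71 to 14.0 and 7.83 to 14.0 CPM, overlapped throughout.

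*Loxl4* at ZT20 ran from 4.48 to 7.02 CPM in controls (median 5.87) and from 10.9 to 14.6 CPM in *ChAT-BKO* neurons (median 12.2). Each *ChAT-BKO* library exceeded the highest control, as for 0.359% of all genes, and the log2 fold change was 1.07 (SE 0.12, edgeR adjusted p = 5.74e-05; exact permutation p = 0.00216). This call was made with every single library left out. At ZT8 *Loxl4* ran from 4.59 to 10.4 CPM in controls (median 6.20) and from 7.94 to 17.9 CPM in *ChAT-BKO* neurons (median 10.4). Only 3 of 6 *ChAT-BKO* libraries exceeded all controls, and the log2 fold change of 0.74 (SE 0.20, edgeR adjusted p = 0.352) did not pass. The summed muscle markers ran from 63.1 to 98 CPM in controls and from 77.8 to 174 CPM in *ChAT-BKO* neurons at ZT20, with 4 of 12 markers called higher, and with these markers as a covariate the *Loxl4* fold change at ZT20 was 1.08 and the adjusted p was 0.0821.

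*Serpinh1* at ZT8 ran from 0.732 to 1.52 CPM in controls (median 0.983) and from 1.61 to 2.7 CPM in *ChAT-BKO* neurons (median 2.26). The groups did not overlap, as for 0.396% of all genes. The log2 fold change of 1.06 (SE 0.21) had an edgeR adjusted p of 0.0515, just outside the threshold. Without control ZT8 replicate 6 or *ChAT-BKO* ZT8 replicate 6 it passed, with adjusted p from 0.0312 to 0.168 over the 12 libraries left out in turn. *Serpinh1* was called at ZT8 in 3 of 11 alternatives, namely DESeq2 (adjusted p = 0.0187), filterByExpr (0.0325) and the length slope (0.0171), and not with all 24 libraries in the fit (0.178). At ZT20 it ran from 1.49 to 2.79 CPM in controls (median 1.65) and from 1.14 to 4.38 CPM in *ChAT-BKO* neurons (median 3.54), where 4 of 6 *ChAT-BKO* libraries were above all controls and the other two were below every control. The log2 fold change there was 0.74 (SE 0.27, edgeR adjusted p = 0.652). *Serpinh1* was below the input by its ratio of -3.63, and the summed fibroblast and meninges markers at ZT8 were at 53.6 to 80.2 CPM in controls and 67.0 to 105 CPM after deletion. With the vascular and fibroblast markers as a covariate the *Serpinh1* fold change was 0.90 at ZT8 (edgeR adjusted p = 0.875), 0.72 at ZT20 (adjusted p = 0.484) and 0.73 averaged over both times (adjusted p = 0.0339). *Serpinh1* lies 13.9 Mb from *Bmal1* on chromosome 7, as *P4ha3* does at 12.9 Mb, so that for these genes the deletion and chromosome 7 sequence carried along with the floxed allele cannot be told apart.

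**Figure D3:**
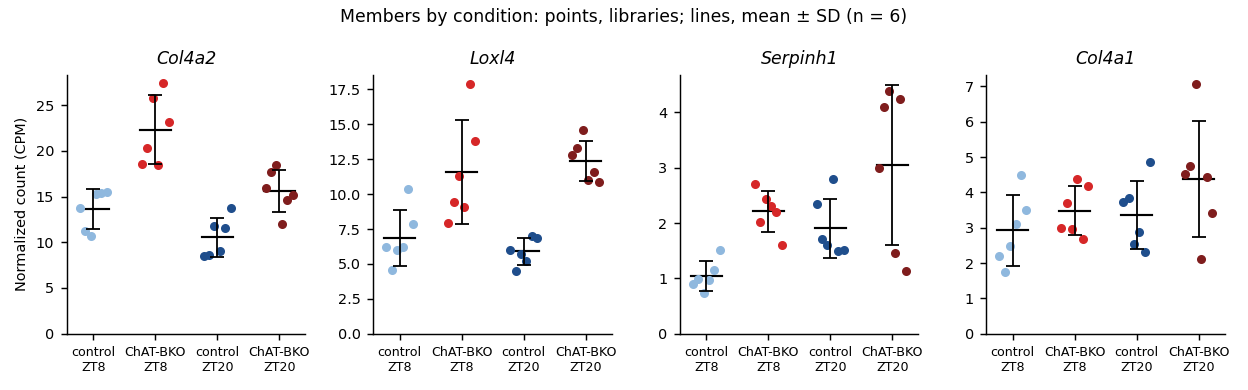
Normalized counts (CPM, y axes from 0) of *Col4a2*, *Loxl4*, *Serpinh1* and *Col4a1* in the 4 conditions, with 1 point per library and the mean ± SD of 6 libraries. The *ChAT-BKO* points of *Col4a2* at ZT8, *Loxl4* at ZT20 and *Serpinh1* at ZT8 all lie above the controls, while those of *Col4a1* overlap the controls at both times.

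Averaged over both times on all 24 libraries, 3 of 57 members were called, *Loxl4*, *Col4a2* and *Serpinh1*, all higher in *ChAT-BKO* neurons; over all genes 0.474% were called higher and 0.179% lower. These values rest on the same libraries as the comparisons at each time. The averaged log2 fold change was 0.90 for *Loxl4* (SE 0.12, edgeR adjusted p = 3.07e-05), 0.63 for *Col4a2* (SE 0.09, adjusted p = 8.9e-05) and 0.90 for *Serpinh1* (SE 0.18, adjusted p = 0.00958). The same 3 members were called with each of the 24 libraries left out, and with the vascular and fibroblast or the muscle markers as a covariate. They were also called with both libraries of high muscle markers left out. Those are a control and a *ChAT-BKO* library of ZT8, and the fit keeps all ZT20 libraries, where *ChAT-BKO* neurons had the higher median muscle sum. Leaving them out therefore cannot decide whether muscle RNA has a part in these calls. The next members by p were *Col23a1*, at -0.23 (SE 0.09, adjusted p = 0.485), and *Col4a1*, at 0.39 (SE 0.17, adjusted p = 0.559).

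*Col4a1* is transcribed away from the shared start region of *Col4a2* and encodes the alpha1 chain of the same trimer. It ran from 1.74 to 4.50 CPM in controls and 2.69 to 4.37 CPM after deletion at ZT8, and from 2.31 to 4.87 and 2.11 to 7.07 CPM at ZT20. The groups overlapped at both times, with log2 fold changes of 0.32 (SE 0.21, edgeR adjusted p = 1) and 0.47 (SE 0.23, adjusted p = 0.81). With the muscle markers as a covariate the value of *Col4a1* at ZT20 was -0.23, and that of *Col4a2* went from 0.58 to 0.36 in the same fit. In the input the 2 genes had nearly equal counts, a *Col4a2* to *Col4a1* ratio of 1.02, and their exonic lengths are also close (6450 and 6615 bases). In the 24 IP libraries the ratio ran from 2.26 to 10.2, with a median of 4.44, so that every IP library had more *Col4a2* than *Col4a1*.

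The ratio was lower at ZT20 than at ZT8 by its medians. Controls had a median of 4.68 at ZT8 (3.42 to 6.43) and 2.99 at ZT20 (2.26 to 5.01), and *ChAT-BKO* neurons had 5.87 at ZT8 (4.24 to 10.2) and 3.63 at ZT20 (2.60 to 5.69). None of the 4 comparisons of log2 ratios passed after adjustment over the 4: exact permutation tests (two-sided) gave p = 0.0476 for time in controls (Benjamini-Hochberg adjusted 0.0952), 0.0152 for time in *ChAT-BKO* neurons (adjusted 0.0608), 0.121 for genotype at ZT8 (adjusted 0.161) and 0.366 at ZT20 (adjusted 0.366).

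**Figure D4:**
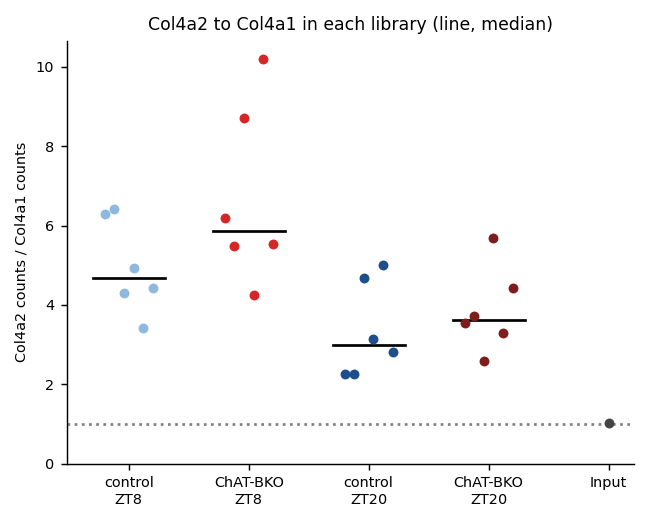
Ratio of *Col4a2* counts to *Col4a1* counts in each library (y axis from 0), with 1 point per library and a line at the median of 6. The 24 IP libraries lie between 2.26 and 10.2, all above the single input library at 1.02, and the dotted line marks a ratio of 1.

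The size of the genotype effect was then compared between times. The difference of the ZT20 and ZT8 effects was called for 0 of 57 members and for 0 of all 21738 genes (0%) by edgeR; 848 genes, 2 of them members, had an unadjusted p under 0.05, and DESeq2 and limma voom also called 0 genes. For *Loxl4* the difference was 0.34 (SE 0.24), for *Col4a2* -0.10 (SE 0.18) and for *Serpinh1* -0.32 (SE 0.37), each with an edgeR adjusted p of 1. The calls of *Col4a2* at ZT8 and of *Loxl4* at ZT20 are thus not shown to be particular to those times. The 3 smallest p-values belonged to *P4ha2* at 0.27 (SE 0.10), *Plod3* at 0.21 (SE 0.09) and *Col6a2* at -0.87 (SE 0.44), all with an adjusted p of 1.

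Between times of day the members that passed the test were hydroxylases, which work inside the cell. These comparisons use the libraries of the genotype comparisons in other pairings. In controls, 1 member was called between ZT20 and ZT8, *P4ha1*, which was higher at ZT20, where 0.0966% of all genes were called higher and 0.0184% lower. In *ChAT-BKO* neurons 3 members were called, *P4ha1*, *Plod1* and *P4ha2*, all higher at ZT20, where 0.23% of all genes were called higher and 0.0552% lower. The median log2 fold change over the 57 members was 0.04 in controls and 0.18 in *ChAT-BKO* neurons, with 31 and 37 members above 0, and it was 0 over all genes in both.

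*P4ha1*, a catalytic alpha subunit of prolyl 4-hydroxylase, ran from 12.3 to 18.4 CPM at ZT8 (median 15.8) and from 20.2 to 26.0 CPM at ZT20 (median 21.7) in controls. All 6 ZT20 libraries lay above all ZT8 libraries, as for 0.589% of all genes, with a log2 fold change of 0.53 (SE 0.10, edgeR adjusted p = 0.0332; exact permutation p = 0.00216). In *ChAT-BKO* neurons it ran from 13.0 to 17.9 CPM (median 14.9) and from 22.1 to 26.8 CPM (median 24.3), again without overlap, as for 0.676% of all genes. There the fold change was 0.70 (SE 0.08, edgeR adjusted p = 0.000465). The call in controls was lost when any 1 of 6 libraries was left out (control ZT8 replicates 1 and 4, control ZT20 replicates 2, 3, 4 and 6), with adjusted p from 0.0265 to 0.108 over the 12 libraries, whereas the call in *ChAT-BKO* neurons was kept without any library. Endothelial markers summed to 8.71 to 14.0 CPM at ZT8 and 13.3 to 21.9 CPM at ZT20 in controls. With the vascular and fibroblast markers as a covariate the *P4ha1* fold change in controls was 0.50, against 0.53 without it, with an adjusted p of 1. That fit called 0 of all 21738 genes, so that the loss of the call was not particular to *P4ha1*. By genotype *P4ha1* had fold changes of -0.05 (SE 0.10) at ZT8 and 0.11 (SE 0.08) at ZT20, neither of which passed.

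*Plod1* and *P4ha2* followed in *ChAT-BKO* neurons. *Plod1*, a lysyl hydroxylase, ran from 24.9 to 27.0 CPM at ZT8 (median 26.4) and from 31.7 to 36.2 CPM at ZT20 (median 34.8). The times did not overlap, as for 0.676% of all genes in this direction, and the log2 fold change was 0.39 (SE 0.06, edgeR adjusted p = 0.00532). In controls it ran from 24.8 to 32 CPM (median 28.4) and from 29.3 to 38.1 CPM (median 31.8), with overlap and a fold change of 0.22 (SE 0.08, adjusted p = 0.438). *P4ha2* ran from 25.4 to 30.1 CPM at ZT8 (median 28.7) and from 33.8 to 44.9 CPM at ZT20 (median 39.1) in *ChAT-BKO* neurons, again with no overlap, and the fold change was 0.43 (SE 0.07, edgeR adjusted p = 0.0108). In controls it was 28.5 to 36.9 CPM (median 31.5) and 32.9 to 38.5 CPM (median 36.1), with a fold change of 0.16 (SE 0.07, adjusted p = 0.562). The time effects in the 2 genotypes are not shown to differ, since that difference, which is the same contrast as the difference of genotype effects, had an adjusted p of 1 for both genes.

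**Figure D5:**
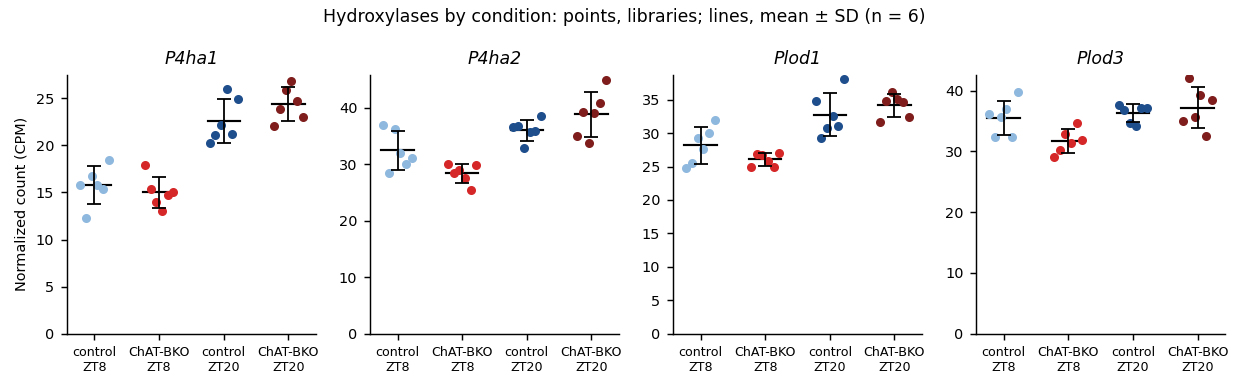
Normalized counts (CPM, y axes from 0) of *P4ha1*, *P4ha2*, *Plod1* and *Plod3* in the 4 conditions, with 1 point per library and the mean ± SD of 6 libraries. The ZT20 points of *P4ha1* lie above the ZT8 points in both genotypes, those of *P4ha2* and *Plod1* do so in *ChAT-BKO* neurons, and those of *Plod3* overlap in both.

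*Plod3* and *P4hb* were not called between times. *Plod3*, which encodes a lysyl hydroxylase that also glycosylates collagen, was at 31.7 ± 2.00 CPM at ZT8 and 37.2 ± 3.39 CPM at ZT20 in *ChAT-BKO* neurons (log2 fold change 0.24, SE 0.07, edgeR adjusted p = 0.212) and at 35.5 ± 2.80 and 36.3 ± 1.47 CPM in controls (0.03, SE 0.06, adjusted p = 0.944). *P4hb* ran from 152 to 189 CPM over all 24 libraries, with a time difference of 0.06 in both genotypes (SE 0.06 in controls and 0.05 in *ChAT-BKO* neurons). *Plod2*, the least abundant of the 3 lysyl hydroxylases, had time differences of -0.15 (SE 0.24) and 0.28 (SE 0.20), neither of which passed.

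Among the chains, none was called between times. *Col4a2* in *ChAT-BKO* neurons was lower at ZT20 in all 6 libraries, as for 0.506% of all genes, at a log2 fold change of -0.47 (SE 0.11, edgeR adjusted p = 0.106), and in controls it was at -0.37 (SE 0.13, adjusted p = 0.438) with overlap. *Col2a1* in controls ran from 0.474 to 0.879 CPM at ZT8 (median 0.549) and from 0.253 to 0.437 CPM at ZT20 (median 0.342), without overlap, as for 0.35% of all genes, but its fold change of -0.84 (SE 0.33) rested on few counts and did not pass (edgeR adjusted p = 0.493). *Col1a1* in controls ran from 1.03 to 2.37 CPM (median 1.94) and from 1.90 to 4.32 CPM (median 3.30), a fold change of 0.79 (SE 0.22, adjusted p = 0.271). *Serpinh1* in controls, at 0.84 (SE 0.24, adjusted p = 0.276), and *Col6a2*, at 1.04 (SE 0.30, adjusted p = 0.281), were also among the 4 smallest p-values of that comparison. *Col6a2* ran from 0.582 to 1.80 CPM at ZT8 and from 1.33 to 3.19 CPM at ZT20 in controls. The summed fibroblast and meninges markers in controls ran from 53.6 to 80.2 CPM at ZT8 and from 60.4 to 117 CPM at ZT20. Their part in these values was not tested beyond the fit with the vascular and fibroblast markers as a covariate. In that fit the fold changes in controls were 0.30 for *Col1a1*, 0.45 for *Col6a2*, 0.68 for *Serpinh1*, -0.27 for *Col4a2* and -1.05 for *Col2a1*.

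By role, the genotype effects were as follows. Of the 11 fibrillar chains, 0 were called in any comparison; 7 had a fold change above 0 at each time, with a median of 0.15 at ZT8 and at ZT20. The 9 fibril-associated chains had 0 calls and medians of 0.02 and -0.06, and the 7 beaded filament chains had 0 calls and medians of -0.12 and 0.05. The 4 transmembrane chains had 0 calls and medians of -0.10 and -0.22. *Col23a1*, one of them, ran from 5.94 to 7.17 CPM in controls (median 6.25) and from 4.22 to 6.44 CPM in *ChAT-BKO* neurons (median 5.11) at ZT20, where its fold change of -0.26 (SE 0.12, edgeR adjusted p = 0.793) did not pass. The 4 network and anchoring chains had values above 0 at both times, with 0 calls and medians of 0.22 and 0.29. The 4 prolyl 4-hydroxylase genes had medians of -0.04 and 0.08, and the 3 lysyl hydroxylases ranged from -0.17 to -0.10 at ZT8 and from 0.02 to 0.30 at ZT20, with 0 calls in both roles.

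Chains of the same trimer or fibril, and *Col4a2* with the chaperone gene *Serpinh1*, were compared across libraries. The mean of each condition was removed, and there were 6 pairs in all (permutation within conditions, Benjamini-Hochberg over the 6). *Col1a1* rose and fell with *Col1a2*, its partner in type I collagen, over the 24 libraries (Pearson's r = 0.74, permutation p = 0.00015, adjusted 0.00045; Spearman's rho = 0.73, p = 0.00027, adjusted 0.00081), and with *Col3a1* (r = 0.65, permutation p = 4e-05, adjusted 0.00024; rho = 0.83, p = 2e-05, adjusted 0.00012). Without the 2 libraries farthest from the median of *Col1a1* these r were 0.61 and 0.68. *Col6a1* and *Col6a2* gave r = 0.49 (permutation p = 0.0331, adjusted 0.0662) and rho = 0.51 (p = 0.0186, adjusted 0.0372), and r = 0.68 without 2 libraries. *Col4a1* and *Col4a2* gave r = 0.37 (permutation p = 0.0875, adjusted 0.131) and rho = 0.29 (p = 0.202, adjusted 0.242), and r = 0.14 without 2 libraries. *Col5a1* and *Col5a2* gave r = 0.30 (permutation p = 0.22, adjusted 0.264) and rho = 0.35 (p = 0.14, adjusted 0.21), and r = 0.48 without 2 libraries. *Col4a2* and *Serpinh1*, both higher in *ChAT-BKO* neurons, gave r = 0.17 within conditions (permutation p = 0.443, adjusted 0.443) and rho = 0.22 (p = 0.325, adjusted 0.325), and -0.07 without 2 libraries.

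Other genes of collagen biology were taken as a list of 60, of which 58 were tested (folding and glycosylation enzymes, procollagen proteinases, collagen-degrading proteinases with their inhibitors, receptors, and partners in basement membranes and fibrils). At ZT8, 2 of 58 were called higher and 0 lower, at ZT20 1 and 0, and averaged over both times 2 and 0, where 0.129%, 0.189% and 0.474% of all genes were called higher. Of the list, 0 were called between times or for the difference of effects. The genes called were *Colq*, which encodes the collagen tail that anchors acetylcholinesterase in the synaptic basement membrane, and *Ppib*, which encodes the prolyl isomerase cyclophilin B of the endoplasmic reticulum. *Colq* ran from 4.26 to 6.44 CPM in controls and 6.85 to 9.59 CPM after deletion at ZT8, and from 4.63 to 6.11 and 7.18 to 10.7 CPM at ZT20, without overlap at either time, as for 0.396% and 0.359% of all genes. Its log2 fold changes were 0.69 (SE 0.12, edgeR adjusted p = 0.0189) and 0.65 (SE 0.12, adjusted p = 0.024), and it was above the input by 0.58. The ZT8 call of *Colq* was lost without control ZT8 replicate 1 or 4 or *ChAT-BKO* ZT8 replicate 2 or 3 (highest adjusted p = 0.0817) and with the vascular and fibroblast markers as a covariate (0.56, adjusted p = 0.664). Its ZT20 call was lost without control ZT20 replicate 1, 3, 4 or 5 or *ChAT-BKO* ZT20 replicate 1, 2 or 6 (highest adjusted p = 0.0977) and with the muscle markers as a covariate (0.40, adjusted p = 1). Averaged over both times it was at 0.67 (edgeR adjusted p = 5.69e-06) and was called with each library left out and under every alternative run. *Ppib* was at 70.3 ± 3.95 and 87.0 ± 5.43 CPM at ZT8 (0.31, SE 0.06, edgeR adjusted p = 0.0291) and at 77.2 ± 11.4 and 94.0 ± 10.6 CPM at ZT20 (0.27, SE 0.09, adjusted p = 0.52). Its ZT8 call was lost without control ZT8 replicate 1, 3 or 4 or *ChAT-BKO* ZT8 replicate 1, 2, 3 or 4 (highest adjusted p = 0.106), with all 24 libraries in the fit (adjusted p = 0.19) and with the vascular and fibroblast markers as a covariate (adjusted p = 0.362). The averaged value of 0.29 (edgeR adjusted p = 0.00517) was called with each library left out. The 12 folding and glycosylation genes had medians of 0.04 and 0.08, the 13 basement membrane partners -0.03 and 0.14, the 9 receptors tested 0.02 and 0, and the 7 fibril partners 0.32 and 0.20. *Bgn* (0.73, SE 0.23, adjusted p = 0.653) followed *Colq* and *Ppib* by p at ZT8, and *Dcn* (0.29, SE 0.09, adjusted p = 0.504) followed *Colq* at ZT20.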

How the data were processed

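Spinal cord mRNA was sequenced as 24 IP libraries (n = 6 per genotype and time) and 1 pooled input. Per the labels and the methods of the paper, the authors made stranded mRNA libraries, aligned reads to mm10 with STAR 2.7.5 and quantified genes with RSEM. The authors deposited expected counts, not normalized; 6.11% of them had a fraction, and they were rounded to whole numbers. Whether counting used strand is not given in the sources used here. Total counts ran from 4.04 to 31.7 M per IP library, and low genes have wide errors. Within conditions, 0 of 60 library pairs had identical counts, and the lowest chi-square per degree of freedom was 1.96.

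Groups came from the labels. Genes with at least 10 counts over the 24 IP libraries were tested with edgeR 4.0.16 in R 4.3.3 (TMM, quasi-likelihood F test, two-sided, Benjamini-Hochberg over 21738 genes), each 2-group comparison on its own 12 libraries, and the averaged effect and the difference of effects on all 24. A call is an adjusted p under 0.05, and the SE was derived from the F statistic. A prior count of 2 was used for log2 CPM. The input entered no test. Exonic lengths came from a GENCODE annotation of GRCm38 and promoters from RefSeq (GRCm38.p6). The fits were tested on simulated data.

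Members and lists were chosen with earlier results of these data known. Genes given in full were members called in any comparison or without overlap between genotypes, the 3 most abundant of each role, and the 3 smallest p-values of each comparison, plus *Col4a2*, *Serpinh1* and *Loxl4*; other pathway genes were named if called or among the 2 smallest p-values. *Col2a1* between times, *P4ha3*, and values just outside this rule were named after their values were seen. Alternatives were DESeq2 1.42.0, its size factors in edgeR, limma voom (limma 3.58.1) with quality weights, no filter, filterByExpr, an adjusted p under 0.01, replicate number as a block, a transcript length slope per library as a covariate, all 24 libraries in each fit, each library left out, a prior count of 0.5, and TMM with the input. Marker sums as covariates, and both libraries of high muscle markers left out, were added after seeing the data.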

Additional observations from a re-analysis of the deposited data

Results flagged for a closer look

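In 136 groups of 6 libraries (34 members in 4 conditions), a single library stood apart from its group by Dixon's test in 7, and chance gives about 6.8. *Col11a2* was at 11.5 CPM in control ZT8 replicate 2, against 7.39 CPM in the next library. *Col18a1* was at 3.19 CPM in control ZT8 replicate 5 (next 4.19 CPM), where *Plod2* was at 4.64 CPM (next 2.64 CPM). *Col6a2* was at 1.80 CPM and *Col6a3* at 2.46 CPM in control ZT8 replicate 6 (next 1.02 and 1.61 CPM). *Col8a1* was at 0.979 CPM in *ChAT-BKO* ZT8 replicate 5 (next 2.52 CPM), and *Loxl2* at 0.792 CPM in *ChAT-BKO* ZT20 replicate 4 (next 1.71 CPM). None of these 7 members was called in any comparison.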

How the results depend on the processing

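The averaged genotype effect called the same 3 members under every alternative run and with each library left out (3 to 3), and the difference of effects called 0 members under all of them (0 to 0). At ZT8 the count of 1 became 0 at an adjusted p under 0.01 and with vascular and fibroblast markers as a covariate, 2 with DESeq2, filterByExpr or replicate number as a block, and 3 with the length slope, and ran from 0 to 2 with a library left out. At ZT20 the count of 1 became 2 with DESeq2, no filter, the replicate block, the length slope or all 24 libraries, and 0 with muscle markers as a covariate, and ran from 1 to 2 with a library left out. Between times in controls the count of 1 became 0 at an adjusted p under 0.01 and with vascular and fibroblast markers as a covariate (0 to 1 with a library left out), and in *ChAT-BKO* neurons the count of 3 became 2 at an adjusted p under 0.01 (without *P4ha2*), 4 with DESeq2 (with *Col4a2*) and 5 with the length slope (3 to 3 with a library left out). The cause of these changes was not tested. Members above the input numbered 10 with TMM and 11 in the single library with the most. Without 2 libraries, r was 0.68 for *Col6a1* with *Col6a2* and -0.07 for *Col4a2* with *Serpinh1*. Over all genes, calls at ZT8 were 40, against 70 with DESeq2, 69 with the block, 159 with the length slope and 14 with vascular and fibroblast markers; at ZT20 50, against 91 with DESeq2, 163 with the length slope and 14 with muscle markers. Averaged, they were 142, against 225 with DESeq2 and 411 with the length slope; between times they were 25 in controls, against 127 with DESeq2, 86 with the block, 346 with the length slope, 59 with muscle markers and 0 with vascular and fibroblast markers, and 62 in *ChAT-BKO* neurons, against 225 with DESeq2, 140 with all 24 libraries and 483 with the length slope. An adjusted p under 0.01 gave 18, 25, 84, 8 and 24.

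No pairing by replicate number was seen in the correlations of same-numbered libraries, which ran from -0.28 to 0.36. Of the 24 libraries, 4 correlated best with their own number. Whether same-numbered libraries shared a batch was not tested. With the replicate block, calls over all genes went from 40 to 69 at ZT8, from 50 to 61 at ZT20 and from 142 to 139 averaged. Between times they went from 25 to 86 in controls and from 62 to 47 in *ChAT-BKO* neurons. The replicate block added *Loxl4* at ZT8 and *Col4a2* at ZT20 to the calls and changed no other member's call. Over 48 values of single genes by comparison (members and genes of the wider list that are given with a test), 1198 alternatives kept the direction and the side of the threshold, 18 moved inside it, 38 moved outside it and 5 reversed; none of these 5 values was called. With muscle markers as a covariate *Col4a1* by genotype at ZT20 went to -0.23 and the difference of effects for *Col4a2* to 0.02. *Plod2* between times in controls went to 0.02 with limma voom and ran from -0.25 to 0.07 with a library left out, and *P4ha1* by genotype at ZT8 ran from -0.13 to 0. The cause was not tested. Depth limits the 12 members with 0 counts in a library and the input values that rest on few counts.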
